A study of Homo sapiens with 18 samples.

Results

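The transcriptional response of J82 cells to palbociclib was described across all measured genes, with stress, lysosomal, secreted, receptor and metabolic genes in the foreground. J82 is an established human bladder cancer cell line. The response was taken as the difference between 3 palbociclib arrays and 3 control arrays of J82, which are 6 of the 18 arrays of the series, and covered 22465 genes with 1 symbol each. Controls received PBS and the treated cells palbociclib at its IC50; the labels give neither the concentration nor the exposure time. All cells grew in DMEM with 10% serum, and each array held RNA of a separate dish that was not yet fully confluent. The lines RT112 and 5637 likewise had control arrays and arrays of palbociclib at the IC50, and whether the lines received the same dose is not given. RT112 (6 arrays) served here as the comparison line. The line 5637 was not used by gene because its values by row name were nearly uncorrelated with those of J82 and RT112. Cultures of 1 line are not independent cell sources, so p-values measure the spread between dishes.

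Palbociclib blocks the cyclin D-dependent kinases CDK4 and CDK6, which phosphorylate the retinoblastoma protein RB and so release E2F factors to switch on genes of DNA replication. Cells arrested in this way often stay metabolically active, enlarge and alter what they secrete. The lysosome is the organelle that degrades macromolecules and serves as a platform for sensing nutrients.

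The label of the line was checked against marker genes. CDH2, the mesenchymal cadherin, had a mean log2 intensity of 12.91 in J82 controls against 6.23 in RT112 controls, and AXL 13.17 against 8.65. CDH1, the epithelial cadherin, stood at 5.68 in J82 against 13.51 in RT112, and the urothelial keratin KRT13 at 5.60 against 15.51. Of 11 mesenchymal markers 9 lay above the median of all genes in J82 controls (5.36), although VIM was only at 6.03. Of 14 urothelial markers 8 did as well (UPK2, UPK3B, GATA3, PPARG, ELF3, CDH1, EPCAM and KRT13), against 10 in RT112 controls. This count hardly separates the lines, and it includes CDH1 and KRT13, which lay only just above the median in J82. Of 11 leukocyte markers 2 did (TYROBP and HLA-DRA), and of 10 endothelial and 10 adipocyte or muscle markers 1 each (CLDN5 and ACTC1). The mean level of the leukocyte markers ran from 4.62 to 4.86 over the control arrays and from 4.81 to 4.95 under palbociclib, and no leukocyte, endothelial or urothelial marker passed the test in J82. Of the mesenchymal markers 4 fell (CDH2, SPARC, AXL and PDGFRB), their mean level running from 7.87 to 7.97 over the controls and from 7.49 to 7.86 under palbociclib. SPARC lost its call without control replicate 2 (-1.02), control replicate 3 (-0.82), palbociclib replicate 1 (-0.98) or palbociclib replicate 2 (-1.13), and with J82 alone only 1 of the 4 passed. ACTC1 also fell (-0.79), a call lost without control replicate 1 (-0.62), control replicate 3 (-0.82), palbociclib replicate 2 (-0.71) or palbociclib replicate 3 (-0.78).

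The 6 arrays separated by treatment along the first principal component, which held 53.1% of the variance over genes. Correlations over genes were 0.99 to 0.994 between arrays of a group and 0.977 to 0.985 between groups. Palbociclib replicate 3 stood apart from its partners: its gene median was 5.50 against 5.36 in both, and it scored 27.3 on the second component against -17.1 and -16.7. Control replicate 1 was the farthest control for a number of genes named below, among them IL6 and THBS1. The highest deposited value is 19.93, whereas a 16-bit scanner cannot give a log2 intensity over 16. All differences below are on the deposited log2 scale and are not fold changes of signal. No detection calls were used, and the number of arrays limits the precision.

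In J82 under palbociclib 1213 of 22465 genes rose and 624 fell at an adjusted p under 0.05 in limma, which is 5.4% and 2.78% of all genes (8.18% together). In 5377 genes (23.9%) the 3 treated and 3 control arrays did not overlap. The leading genes named below by size were required to show no overlap, so for them it is not a separate result. The median difference over all genes was 0.04, and 90% of all genes lay between -0.44 and 0.60. Differences above 2 were seen in 27 genes and below -2 in 24. Calls were concentrated among brighter genes: of the 5617 genes with the lowest control levels 0.41% rose and 0.02% fell, and of the 5616 with the highest 10.31% rose and 8.32% fell. Without palbociclib replicate 3 the rising genes numbered 662 and the falling ones 650. Without control replicate 3 they numbered 723 and 424.

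**Figure D1:**
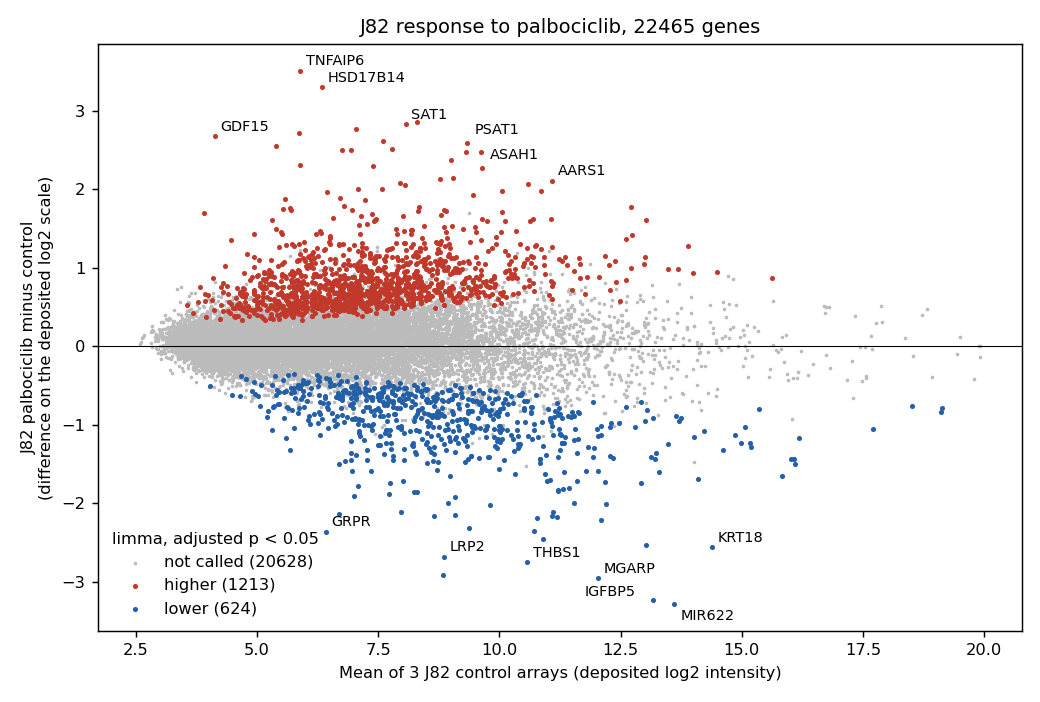
Difference between palbociclib and control in J82 (y axis, deposited log2 scale) against the mean control level (x axis, deposited log2 intensity) for 22465 genes, with the 1213 called higher in red and the 624 called lower in blue. Differences run from -3.28 to 3.51, and calls are rare below a control level of about 5.

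Of the 1837 called genes 321 were in the lists described here and 1516 were outside them. Each list count below is to be read beside the 5.4% of all genes that rose and the 2.78% that fell. Over all lysosome, nutrient-sensing and autophagy lists together 62 of 173 genes rose and none fell, with a median difference of 0.38. Over the amino acid and integrated stress lists 32 of 99 rose and 4 fell (median 0.31). Over the matrix, adhesion and cytoskeleton lists 6 of 208 rose and 45 fell (median -0.04), and over the receptor lists 16 of 218 rose and 19 fell (median 0.01). With the J82 arrays fitted alone these became 37 and 0, 27 and 3, 4 and 26, and 7 and 13. The falling matrix, adhesion and cytoskeleton genes numbered 29 when either control replicate 3 or palbociclib replicate 2 was left out. The rising receptor genes numbered 9 when control replicate 1 was left out and 7 when palbociclib replicate 3 was. The 6 rising genes of the matrix lists became 10 without RT112 palbociclib replicate 1. The 4 falling amino acid genes became 1 without control replicate 1 and 2 without control replicate 2, palbociclib replicate 1 or palbociclib replicate 2.

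**Figure D2:**
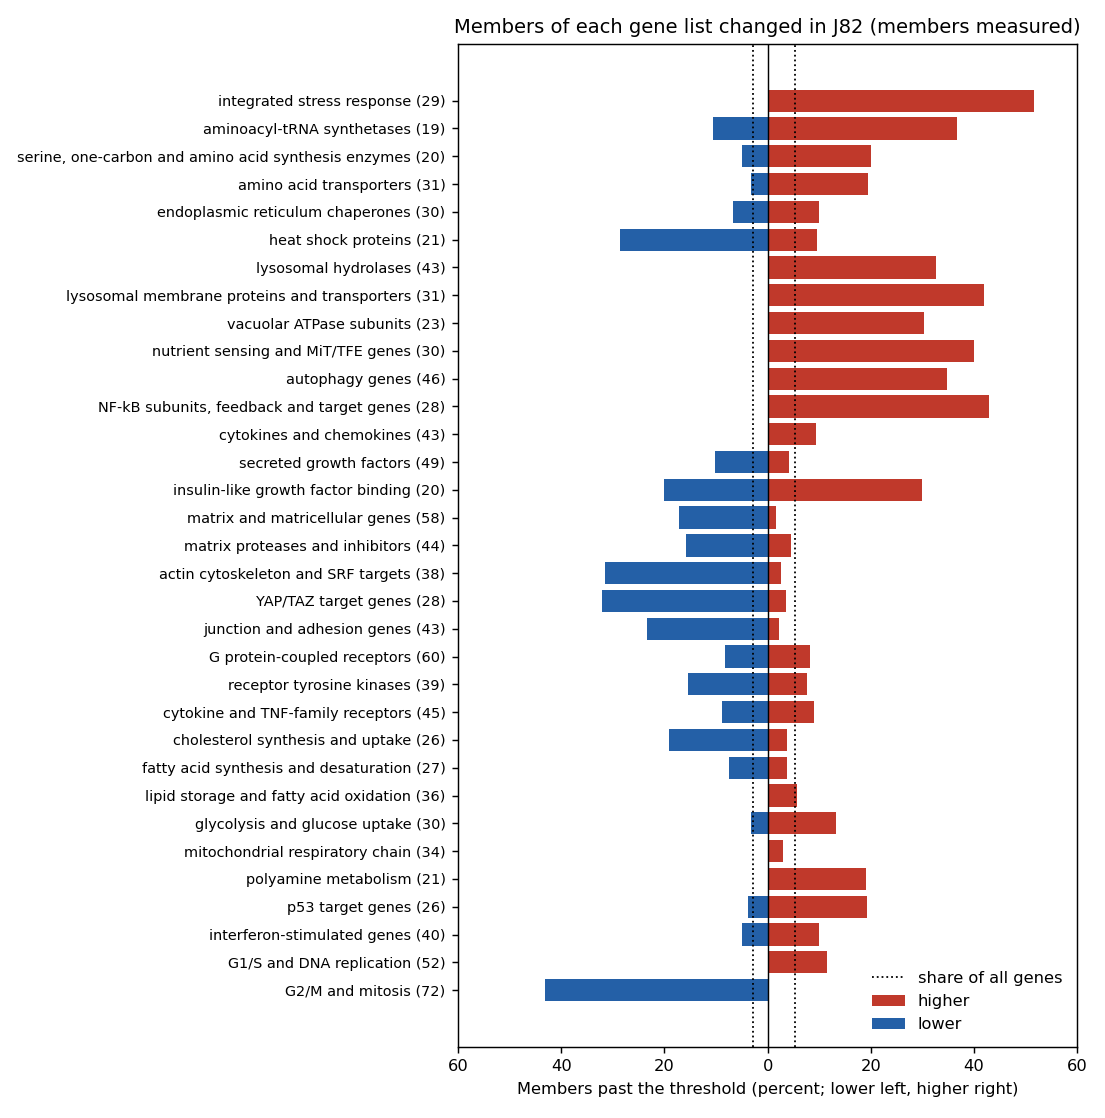
Percent of the measured members of 33 gene lists called higher (red, right) or lower (blue, left) in J82, with the number of members measured in brackets and the share of all genes, 5.4% higher and 2.78% lower, as dotted lines. The integrated stress response reaches 51.7% higher and the G2/M and mitosis list 43.1% lower.

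The integrated stress response is the programme in which kinases that sense amino acid shortage or misfolded protein slow translation and raise the transcription factor ATF4, which then drives genes of amino acid supply. Of 29 measured genes of this response 15 rose and none fell, with a median difference of 0.53, and 28 of the 29 differences were positive. DDIT3, which encodes the stress transcription factor CHOP, read 7.62, 7.73 and 8.01 in the controls and 10.65, 9.70 and 10.54 under palbociclib. The treated arrays all lay above the controls, with replicate 2 the lowest of them (difference 2.51 ± 0.24, SE; adjusted p = 2.68e-05). GDF15, a stress-induced cytokine, read 4.21, 4.07 and 4.08 in the controls and 7.14, 6.73 and 6.53 under the drug, so it rose from below the median of all genes (2.68 ± 0.15; adjusted p = 3.41e-07). TXNIP, an arrestin-like protein that restrains glucose uptake, went from 6.50, 6.64 and 7.10 to 8.94, 9.34 and 9.47 (2.50 ± 0.29). ATF4 itself, named for its role and outside the naming rule, read 8.54, 8.94 and 8.74 against 9.84, 9.76 and 10.34, without overlap (1.24 ± 0.21; adjusted p = 0.00203). KLHL24, a kelch-like adaptor, rose by 1.66 ± 0.17 and CLGN, a chaperone of the endoplasmic reticulum, by 1.29 ± 0.21.

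Some of the genes that supply amino acids also passed the test. Of 19 aminoacyl-tRNA synthetases, the enzymes that charge tRNAs, 7 rose and 2 fell (FARSB and VARS1), with a median of 0.63; neither fall passed without control replicate 1 or palbociclib replicate 2, and 1 of them did without control replicate 2, palbociclib replicate 1 or any RT112 array but palbociclib replicate 1. AARS1 was the most changed, at 10.84, 11.14 and 11.29 in the controls and 13.06, 13.11 and 13.42 under palbociclib (2.11 ± 0.25; adjusted p = 0.000153). The groups were far apart relative to the spread within each. SARS1 (1.53 ± 0.21), GARS1 (1.26 ± 0.20) and YARS1 (1.13 ± 0.16) also rose. In serine and one-carbon metabolism 4 of 20 genes rose and 1 fell. PSAT1, an aminotransferase of serine synthesis, read 9.47, 9.44 and 9.09 in the controls and 11.13, 12.25 and 12.38 under the drug, with replicate 1 the lowest treated array (2.59 ± 0.36; adjusted p = 0.000595). The first enzyme of that route, PHGDH, rose by 0.93 ± 0.11 and the mitochondrial hydroxymethyltransferase SHMT2 by 1.70 ± 0.18. ASNS, which makes asparagine, went from 6.39, 6.53 and 6.51 to 7.53, 7.77 and 8.11, every treated array above every control (1.33 ± 0.14; adjusted p = 8.16e-05).

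Of 31 amino acid transporters 6 rose and 1 fell (median 0.12). SLC7A5, the light chain of the large neutral amino acid exchanger, read 13.04, 12.48 and 12.62 against 14.72, 13.94 and 14.78 (1.77 ± 0.24), and its heavy chain SLC3A2 rose by 1.62 ± 0.26. Both chains lay well above the median of all genes in every array. The lysosomal transporter SLC38A7 rose by 1.11 ± 0.14, and SLC7A6, an exchanger of cationic amino acids, fell by 1.05 (SE 0.16). Leaving out either control replicate 1 or palbociclib replicate 3 reduced the rising transporters to 3.

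The promoter of ASNS is shown because it holds the C/EBP-ATF response element, through which ATF4 is known to raise this gene. Capitals mark the core TGATGNAA, searched on both strands of the RefSeq promoters of GRCh38.p14, from 250 bases before to 50 after the gene start.
ASNS promoter (chr7:97872359-97872658, minus strand): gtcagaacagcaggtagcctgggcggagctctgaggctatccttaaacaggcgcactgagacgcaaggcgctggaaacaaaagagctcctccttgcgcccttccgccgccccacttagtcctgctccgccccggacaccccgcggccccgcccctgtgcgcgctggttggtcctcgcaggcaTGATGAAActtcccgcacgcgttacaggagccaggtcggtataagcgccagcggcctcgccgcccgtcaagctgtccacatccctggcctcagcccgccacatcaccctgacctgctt
The core was found in 2.7% of 15247 promoters of tested genes, in 2.4% of 984 promoters of rising genes and in 2.3% of 395 promoters of falling genes. Among the amino acid and integrated stress lists it was in 19.7% of 76 promoters of all members and in 22.6% of 31 promoters of called members. A match is a description of letters and not a bound site.

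Chaperones did not follow the same direction. Of 30 chaperones and quality-control genes of the endoplasmic reticulum 3 rose and 2 fell (median 0.11). These are 10.0% and 6.7%, against 5.4% and 2.78% of all genes. The rises numbered 5 without palbociclib replicate 1, and the falls 0 without control replicate 2, control replicate 3 or palbociclib replicate 2 and 1 without palbociclib replicate 1 or any RT112 array but palbociclib replicate 1. ERN1, a sensor of misfolded protein, rose by 1.03 ± 0.19 from 5.97, 6.16 and 6.06 to 7.02, 6.71 and 7.55, and HERPUD1, a factor of protein disposal there, rose by 1.05 ± 0.20. HSPA5, the main chaperone of this compartment and named for its role, had 13.07, 14.39 and 14.36 in the controls and 13.51, 15.10 and 15.11 under the drug. Its groups overlapped and the difference was 0.63 ± 0.49 (adjusted p = 0.616). Of 21 cytosolic and mitochondrial heat shock genes 6 fell and 2 rose (median -0.20). HSPH1, a nucleotide exchange factor, read 13.46, 13.04 and 13.12 against 11.52, 11.71 and 12.08, a fall of 1.44 on the log2 scale (SE 0.20), whereas the mitochondrial chaperone HSPA9 rose by 1.03 ± 0.17. The number of falling heat shock genes was 1 without control replicate 1, and 3 without control replicate 3, palbociclib replicate 1 or palbociclib replicate 2.

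Lysosomal genes that passed the test all rose. Of 43 hydrolases 14 rose and none fell (median 0.38), of 31 membrane proteins and transporters 13 rose and none fell (median 0.50), and of 23 subunits of the vacuolar ATPase, the proton pump that acidifies the organelle, 7 rose and none fell (median 0.46). ASAH1, acid ceramidase, read 9.16, 9.76 and 9.95 in the controls and 11.97, 12.05 and 12.26 under palbociclib. The treated arrays lay within a narrow band above all controls (2.47 ± 0.19; adjusted p = 4.58e-06). HEXA, a subunit of hexosaminidase, went from 9.28, 9.77 and 9.85 to 10.92, 11.30 and 11.57 (1.63 ± 0.19), the cathepsin gene CTSL rose by 1.32 ± 0.20 and the mannosidase MANBA by 1.25 ± 0.19. The number of rising hydrolases was 7 without control replicate 1, 7 without palbociclib replicate 3 and 6 with J82 alone.

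Among the membrane proteins MCOLN3, a calcium channel of endosomes and lysosomes, read 6.63, 7.27 and 7.23 against 9.36, 9.76 and 10.28 (2.76 ± 0.21; adjusted p = 4.82e-06). Its relative MCOLN1, the main lysosomal calcium channel and named for its role, went from 7.95, 8.24 and 8.34 to 9.53, 9.20 and 9.57 (1.26 ± 0.16). CLCN7, the chloride-proton exchanger, read 8.45, 8.89 and 9.0 in the controls and 11.12, 10.62 and 10.99 under the drug (2.13 ± 0.20; adjusted p = 2.24e-05). None of these 3 genes had overlapping groups, which the naming rule required of MCOLN3 and CLCN7. LAMP2, a structural protein of the lysosomal membrane, rose by 1.42 ± 0.25 and the glycoprotein GPNMB by 1.37 ± 0.16. Of the ATPase subunits, ATP6V1E1 rose by 0.97 ± 0.14; the count of 7 became 4 without control replicate 3.

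Of 30 genes of nutrient sensing 12 rose and none fell (median 0.30). Rag GTPases recruit the growth kinase mTORC1 to the lysosome, and RRAGD read 6.82, 7.11 and 6.92 in the controls and 9.18, 9.25 and 9.91 under palbociclib (2.50 ± 0.18; adjusted p = 4.01e-06). RRAGC went from 8.87, 9.38 and 8.88 to 10.84, 11.10 and 11.60 (2.14 ± 0.25; adjusted p = 0.000135). Both stood clear of their controls, and RRAGB rose by 1.22 ± 0.19. The factors known to drive lysosomal genes, named for their role, did not pass the test at the level of their own RNA. TFEB lay below the median of all genes at 4.73, 4.84 and 4.74 against 4.68, 4.73 and 4.66 (-0.08 ± 0.09; adjusted p = 0.811), and TFE3 read 8.47, 7.77 and 7.81 against 7.81, 7.42 and 8.0 (-0.27 ± 0.19; adjusted p = 0.527). Of 46 autophagy genes 16 rose and none fell (median 0.30), with the receptors OPTN (1.14 ± 0.20) and BNIP3L (0.95 ± 0.15) and the initiation factor ATG13 (1.00 ± 0.19). The autophagy count was 7 with J82 alone and 9 once every array had been set to the same median.

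**Figure D3:**
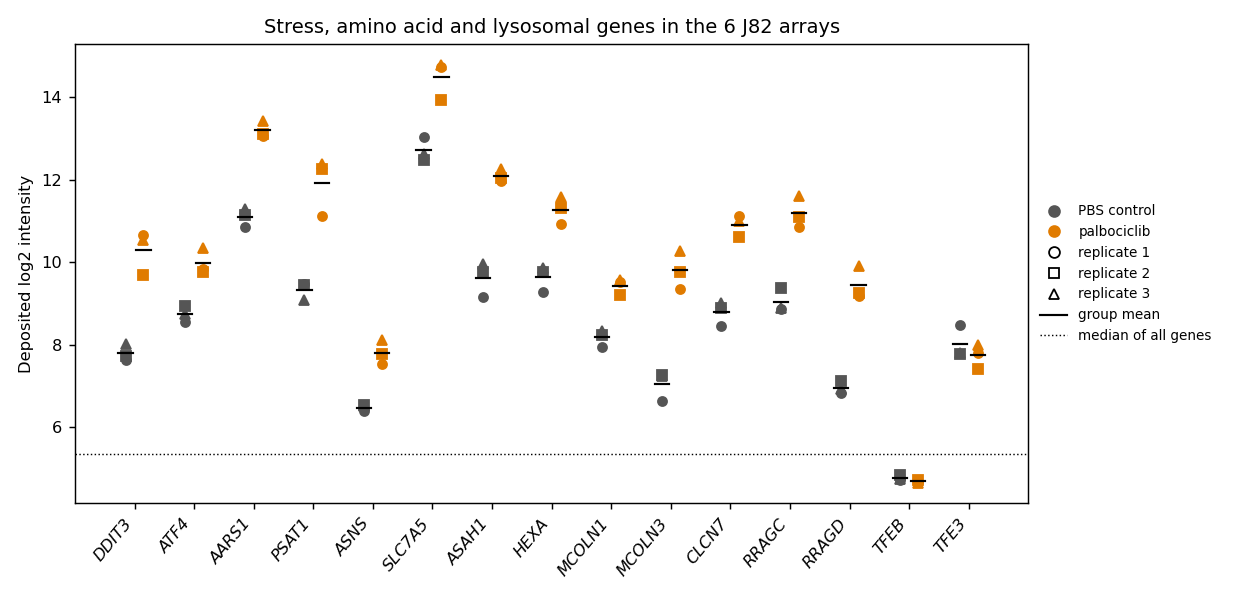
Deposited log2 intensity (y axis) of 15 stress, amino acid and lysosomal genes in each of 3 control (grey) and 3 palbociclib (orange) arrays of J82, with a symbol per replicate and bars for group means. TFEB and TFE3 have overlapping groups, and the other 13 genes have every treated array above every control.

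Promoters of CLCN7 and RRAGC are shown because both genes are among the leading rises and hold the E-box core of the CLEAR element, TCACGTG, which TFEB and its relatives are known to bind. Capitals mark the core on either strand of the RefSeq promoter (GRCh38.p14). The CLCN7 promoter held it at 48 and 28 bases before the start, and that of RRAGC at 112 bases before it.
CLCN7 promoter (chr16:1474979-1475278, minus strand): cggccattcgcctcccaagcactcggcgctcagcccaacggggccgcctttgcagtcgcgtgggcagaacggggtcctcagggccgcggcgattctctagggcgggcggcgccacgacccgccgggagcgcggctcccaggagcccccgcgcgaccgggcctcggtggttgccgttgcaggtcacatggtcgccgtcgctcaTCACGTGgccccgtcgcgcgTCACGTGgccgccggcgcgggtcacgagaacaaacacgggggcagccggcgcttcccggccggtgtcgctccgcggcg
RRAGC promoter (chr1:38859723-38860022, minus strand): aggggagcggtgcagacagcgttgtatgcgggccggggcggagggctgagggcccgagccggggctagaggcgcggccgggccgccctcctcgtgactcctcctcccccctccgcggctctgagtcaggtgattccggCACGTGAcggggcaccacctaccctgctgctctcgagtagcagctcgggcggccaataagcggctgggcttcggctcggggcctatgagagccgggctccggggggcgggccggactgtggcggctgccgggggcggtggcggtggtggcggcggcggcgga
Of all 15247 promoters 4.7% held the core, against 13.0% of 984 promoters of rising genes and 3.8% of 395 promoters of falling genes. In the lysosome, nutrient-sensing and autophagy lists 18.2% of 137 promoters of all members and 34.1% of 44 promoters of called members held it. In the 150 bases around the start the shares were 3.2% of all, 10.1% of rising and 2.3% of falling genes.

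Vesicle transport genes were looked at as families by symbol, outside the naming rule and after their values were known. Of 35 genes with the stem VPS 9 rose and none fell, which is 25.7% against 5.4% of all genes (median 0.25). They included VPS11, VPS18, VPS39 and VPS41, subunits of the HOPS complex that tethers vesicles to lysosomes. VPS39 read 9.52, 9.29 and 9.87 against 10.76, 10.23 and 10.88 (1.06 ± 0.20), and VPS18 rose by 1.04 ± 0.16. The retromer subunits VPS35 (0.80 ± 0.17) and VPS26A (0.76 ± 0.15), which return receptors from endosomes, rose as well. Of 69 RAB GTPases 9 rose and none fell (13.0%). RAB31, a GTPase of trans-Golgi and endosomal traffic, went from 10.33, 10.01 and 9.79 to 12.06, 11.84 and 12.17 (1.98 ± 0.21), and RAB7A, the late endosomal GTPase, from 15.88, 15.70 and 15.30 to 16.55, 16.37 and 16.56 (0.87 ± 0.18). RAB29 (1.24 ± 0.16), RAB27B (0.97 ± 0.15) and RAB27A (0.88 ± 0.13), the last pair known for secretion, also rose. With the arrays shifted to one median 6 VPS and 8 RAB genes rose. The rises are not particular to J82: in RT112 7 VPS and 10 RAB genes rose and 1 of each family fell.

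NF-kB is a transcription factor of inflammation. Of its 28 subunits, feedback inhibitors and targets 12 rose and none fell (median 0.50). TNFAIP6, a secreted hyaluronan-binding protein, had the largest rise of all genes in J82, from 5.53, 6.24 and 5.91 to 8.47, 9.85 and 9.88 (3.51 ± 0.29; adjusted p = 9.57e-06). Replicate 1 was the lowest treated array, still above every control. TNFAIP3, the ubiquitin-editing inhibitor A20, read 7.68, 8.46 and 8.75 against 11.35, 10.55 and 11.54 (2.85 ± 0.27). The inhibitor NFKBIA went from 10.56, 10.59 and 10.72 to 12.61, 11.81 and 12.22 (1.59 ± 0.20). The kinase-like adaptor IRAK2 (1.59 ± 0.21) and IER3 (1.09 ± 0.14) rose too. RELA, the main activating subunit and named for its role, overlapped between groups, at 7.99, 7.34 and 7.61 against 8.10, 7.41 and 7.70 (0.09 ± 0.18; adjusted p = 0.929).

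Of 43 cytokines and chemokines 4 rose and none fell (median 0.07), or 9.3% rising against 5.4% of all genes. IL6 read 7.93, 9.22 and 9.86 in the controls and 10.95, 11.70 and 11.48 under palbociclib (2.37 ± 0.35; adjusted p = 0.000933). The controls spread widely, with replicate 1 lowest, but the groups did not overlap, which the naming rule required. CXCL8 stood at 4.83, 5.36 and 4.93 in the controls, about the median of all genes, and at 6.10, 6.42 and 5.92 under the drug (1.10 ± 0.16), and CXCL2 rose by 0.82 ± 0.17. The other 39 cytokine genes did not pass the test.

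The TNFAIP3 promoter is shown because this gene is a known feedback target with adjacent NF-kB sites. Capitals mark the NF-kB core on either strand, found here at 67 and 55 bases before the start (RefSeq, GRCh38.p14).
TNFAIP3 promoter (chr6:137867009-137867308, plus strand): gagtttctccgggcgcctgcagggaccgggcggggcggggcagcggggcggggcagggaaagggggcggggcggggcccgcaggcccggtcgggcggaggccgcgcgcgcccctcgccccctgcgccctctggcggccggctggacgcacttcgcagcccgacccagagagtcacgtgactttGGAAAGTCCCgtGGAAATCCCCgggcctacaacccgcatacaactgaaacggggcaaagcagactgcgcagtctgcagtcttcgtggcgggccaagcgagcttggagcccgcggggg
This core was in 6.1% of all 15247 promoters, 6.6% of promoters of rising genes and 5.6% of promoters of falling genes. In the NF-kB list 7 of 25 promoters held it, 28.0%.

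Secreted growth regulators moved both ways. Among 20 genes of insulin-like growth factor binding and signalling 6 rose and 4 fell. IGFBP5, a binding protein of these factors, fell the most of all protein-coding genes, from 13.16, 13.07 and 13.31 to 10.25, 9.64 and 9.95 (-3.23 ± 0.18; adjusted p = 3.41e-07). The groups lay far apart with little spread. PAPPA, a protease that cleaves such binding proteins, read 9.25, 8.76 and 9.07 against 10.48, 10.46 and 10.73 (1.53 ± 0.14), STC2, an inhibitor of that protease, rose by 1.25 ± 0.18, and the receptor adaptor IRS2 rose by 1.47 ± 0.26. The rises numbered 3 when either control replicate 1 or palbociclib replicate 3 was left out, and the falls 2 when either control replicate 1 or control replicate 3 was.

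Of 49 secreted growth factors 2 rose and 5 fell (median 0.00), or 4.1% and 10.2% against 5.4% and 2.78% of all genes. TGFB2, a transforming growth factor, read 12.13, 12.19 and 12.19 against 10.38, 10.26 and 10.67 (-1.73 ± 0.14; adjusted p = 9.02e-06). NRG1, a ligand of ERBB receptors, went from 8.26, 8.04 and 7.80 to 6.62, 6.56 and 6.58 (-1.45 ± 0.14). Both had tight groups without overlap. VEGFA, the vascular growth factor, rose from 7.0, 7.26 and 7.5 to 8.20, 8.42 and 8.87 (1.25 ± 0.25). Leaving out either control replicate 3 or palbociclib replicate 2 reduced the falling growth factors to 3.

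Of 58 matrix genes 10 fell and 1, THBS3, rose, and 47 did not pass the test (median -0.02). THBS1, thrombospondin, which activates latent TGF-beta, read 11.42, 10.06 and 10.24 in the controls and 7.78, 7.82 and 7.88 under palbociclib (-2.75 ± 0.29; adjusted p = 6.58e-05). Control replicate 1 was the highest, and the treated arrays hardly differed from each other. POSTN, periostin, went from 7.84, 7.91 and 8.26 to 6.22, 6.20 and 6.45 (-1.71 ± 0.16), and CCN1, a matricellular ligand of integrins, fell by 1.18 on the log2 scale (SE 0.17). The matrix count is fragile: it was 4 without control replicate 3, 4 without palbociclib replicate 1, 5 without control replicate 2, 5 without palbociclib replicate 2 and 6 without any single RT112 control. Of 44 matrix proteases and inhibitors 7 fell and 2 rose, the 2 becoming 1 without control replicate 1 or 2 or palbociclib replicate 2 or 3. The secreted proteases ADAMTS1 (-2.11 ± 0.24) and ADAMTS5 (-1.71 ± 0.19) fell, as did PLAUR, the urokinase receptor (-1.25 ± 0.20), whereas the inhibitor SERPINE2 rose by 1.09 ± 0.17.

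Of 38 actin cytoskeleton genes and SRF targets 12 fell and 1 rose (median -0.24), and of 28 targets of the mechanosensitive factors YAP and TAZ 9 fell and 1 rose (median -0.17). CALD1, caldesmon, read 12.16, 12.24 and 12.46 against 10.78, 10.90 and 11.01 (-1.39 ± 0.14; adjusted p = 4.17e-05). VCL, vinculin, which links actin to adhesions, fell by 1.44 on the log2 scale (SE 0.25), tropomyosin TPM1 by 1.14 (SE 0.20) and tissue factor F3 by 1.24 (SE 0.17). Without control replicate 1, or without palbociclib replicate 2, 7 cytoskeletal genes fell.

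Of 43 junction and adhesion genes 10 fell and 1 rose, the tight junction gene CLDN1 (1.19 ± 0.23), with a median of -0.08. The protocadherin PCDH7 went from 8.43, 8.51 and 8.58 to 6.94, 6.92 and 7.20 (-1.49 ± 0.13), the gap junction gene GJA1 fell by 1.45 on the log2 scale (SE 0.23) and the desmosomal cadherin DSC3 by 1.19 (SE 0.19). Without control replicate 3, or without palbociclib replicate 2, 6 junction genes fell. KRT18, a keratin of simple epithelia, read 14.83, 14.23 and 14.08 against 12.02, 11.47 and 11.98 (-2.56 ± 0.23; adjusted p = 1.69e-05), and its partner KRT8 fell by 0.95 (SE 0.18). The other 16 keratins did not pass the test. KRT18 has processed copies in the genome that its probes may also read.

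Over all receptor lists 7.3% of genes rose, near the 5.4% of all genes, and 8.7% fell against 2.78%, and the median differences of the lists lay between -0.01 and 0.07. The receptors below are therefore described one at a time. Of 60 G protein-coupled receptors 5 rose and 5 fell (8.3% each). BDKRB2, the constitutive bradykinin receptor, read 5.02, 5.60 and 5.54 in the controls and 7.78, 7.89 and 8.14 under palbociclib (2.55 ± 0.15; adjusted p = 7.16e-07). GRPR, the gastrin-releasing peptide receptor, went the other way, from 6.64, 6.06 and 6.55 to 3.85, 4.05 and 4.26 (-2.36 ± 0.14; adjusted p = 7.73e-07). Its treated values lay below the median of all genes. The endothelin receptor EDNRB (-1.34 ± 0.14) and the sphingosine phosphate receptor S1PR1 (-1.17 ± 0.13) fell too. The rising receptors of this list numbered 3 without control replicate 1 or control replicate 3 and 2 without palbociclib replicate 3.

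Of 39 receptor tyrosine kinases and their co-receptors 3 rose and 6 fell, the 3 becoming 1 without control replicate 1, control replicate 2 or palbociclib replicate 3. GFRA1, the co-receptor of GDNF, read 10.58, 10.76 and 10.78 against 8.47, 8.33 and 8.28 (-2.35 ± 0.13; adjusted p = 3.41e-07). PDGFRB, a mesenchymal growth factor receptor, fell by 1.00 on the log2 scale (SE 0.16), whereas the collagen receptor DDR2 rose from 7.92, 8.47 and 8.54 to 9.61, 9.85 and 10.63 (1.72 ± 0.23). EPHA2, an ephrin receptor, went from 10.99, 10.71 and 10.97 to 8.21, 8.26 and 8.84 (-2.45 ± 0.22; adjusted p = 1.96e-05). It was the only called gene of 20 ephrin receptors and ephrins besides its ligand EFNA1 (0.62 ± 0.14), whose call was lost without palbociclib replicate 3 (0.51).

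Of 45 receptors for cytokines and TNF family ligands 4 rose and 4 fell (8.9% each, against 5.4% and 2.78% of all genes). The decoy receptor TNFRSF11B, osteoprotegerin, read 12.80, 13.28 and 13.78 against 11.70, 11.52 and 11.84 (-1.60 ± 0.24), the interleukin receptor IL7R fell by 1.34 (SE 0.19), and CSF2RA, a receptor chain for a myeloid growth factor, rose by 1.09 ± 0.18. LRP2, the endocytic receptor megalin, went from 8.32, 8.95 and 9.28 to 5.78, 6.33 and 6.41 (-2.68 ± 0.22; adjusted p = 9.02e-06), and the endocytic adaptor DAB2 fell by 1.34 (SE 0.14). Of 22 integrins 2 rose, and only 1 without any J82 array but palbociclib replicate 1; ITGB3 rose by 0.95 ± 0.17. In the TGF-beta and BMP list 2 of 33 genes rose and 2 fell (6.1% each, median 0.04), the rises near the share of all genes. The inhibitor SMAD6 fell by 1.10 (SE 0.15) and LTBP1 and ID3 rose by 0.69 ± 0.12 and 0.98 ± 0.21. BAMBI fell by 0.37 (SE 0.10), a call lost without each of 4 J82 arrays.

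**Figure D4:**
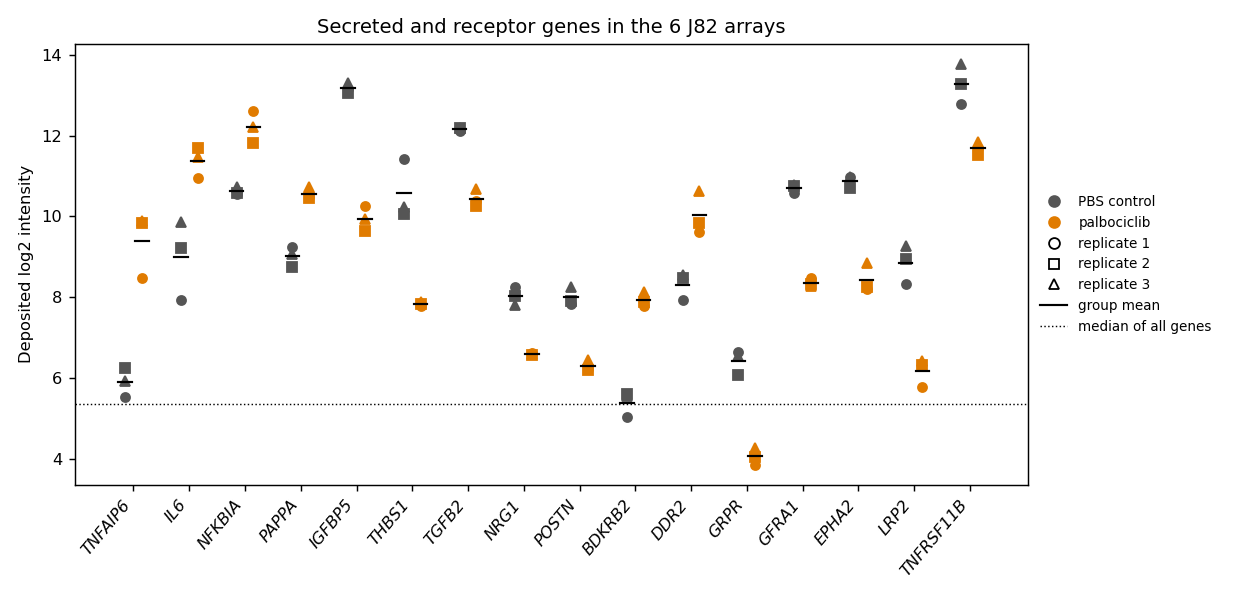
Deposited log2 intensity (y axis) of 16 secreted and receptor genes, and the inhibitor NFKBIA among them, in each of 3 control (grey) and 3 palbociclib (orange) arrays of J82, with a symbol per replicate and bars for group means. No gene shown has overlapping groups, and the treated arrays of GRPR lie below the median of all genes (dotted).

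Of 34 steroid, retinoid and aldehyde dehydrogenases 3 rose and 2 fell, or 8.8% and 5.9% against 5.4% and 2.78% of all genes. HSD17B14, an oxidoreductase of steroids, read 6.16, 6.64 and 6.21 in the controls and 9.36, 9.55 and 9.99 under palbociclib (3.30 ± 0.17; adjusted p = 3.41e-07), which was the largest rise after TNFAIP6. RDH10, a retinol dehydrogenase, and ALDH1A3, which makes retinoic acid, fell by 1.42 (SE 0.30) and 0.90 (SE 0.18). In polyamine metabolism 4 of 21 genes rose, or 2 without palbociclib replicate 3. SAT1, the acetyltransferase that starts polyamine breakdown, went from 7.27, 8.42 and 8.53 to 10.26, 11.12 and 11.31 (2.83 ± 0.37; adjusted p = 0.000387). Control replicate 1 was again the lowest control.

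Of 26 genes of cholesterol synthesis and uptake 5 fell and 1 rose (median -0.04). HMGCS1, the enzyme before the rate-limiting step of the pathway, read 10.38, 11.49 and 11.75 against 9.15, 9.25 and 9.74 (-1.83 ± 0.30; adjusted p = 0.00196), and NSDHL, a later enzyme, fell by 1.05 (SE 0.18). The number falling was 3 without control replicate 3. In fatty acid synthesis 1 of 27 genes rose and 2 fell (3.7% and 7.4%). FASN, the fatty acid synthase, went from 10.11, 10.49 and 10.52 to 9.38, 8.65 and 9.22 (-1.29 ± 0.24), whereas ACSL1 rose by 0.90 ± 0.24. In lipid storage and oxidation 2 of 36 rose (5.6%) and none fell, with PLIN2, a coat protein of lipid droplets, at 0.98 ± 0.14. Among sphingolipid enzymes 1 of 28 rose and 2 fell (3.6% and 7.1%). SPTLC2, of the first step of sphingolipid synthesis, fell by 1.48 (SE 0.22), whereas KDSR rose by 1.08 ± 0.27. The calls of ACSL1 and KDSR were lost without each of 5 and 4 J82 arrays. Of 30 glycolysis genes 4 rose and 1 fell (13.3% and 3.3%, against 5.4% and 2.78% of all genes). The glucose transporter SLC2A1 went from 8.87, 9.12 and 9.33 to 8.08, 7.71 and 8.08 (-1.15 ± 0.20), whereas hexokinase HK2 rose by 0.92 ± 0.15. Of 34 respiratory chain genes 1 rose, NDUFB5 (1.69 ± 0.28), although their median was 0.26.

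Of 33 NRF2 and glutathione genes 4 rose, among them the glutathione peroxidase GPX1 (1.21 ± 0.21) and the export pump ABCC3 (0.93 ± 0.20); the count was 2 without control replicate 2, control replicate 3, palbociclib replicate 1 or palbociclib replicate 3. The zinc and manganese transporter SLC39A8 (1.86 ± 0.34) and metallothionein MT1F (1.27 ± 0.20) rose, the latter from a family of near-identical copies. Of 26 p53 targets 5 rose and 1 fell, with DDB2 at 1.02 ± 0.20, PMAIP1 at 0.88 ± 0.14 and PLK2 falling by 1.03 (SE 0.19). CDKN1A, the best known target, read 6.25, 6.39 and 6.49 against 6.35, 6.18 and 6.57 and did not pass the test (-0.01 ± 0.14; adjusted p = 0.993). DUSP10, a phosphatase of stress kinases, rose from 7.23, 7.01 and 7.0 to 9.17, 8.92 and 9.18 (2.01 ± 0.15). Of 40 interferon-stimulated genes 4 rose and 2 fell (10.0% and 5.0%, against 5.4% and 2.78% of all genes). The 4 became 2 without control replicate 1 or palbociclib replicate 2 and 1 without palbociclib replicate 3, and the 2 became 4 when control replicate 1 was left out and 1 when control replicate 2, control replicate 3 or palbociclib replicate 2 was. IFIT1 fell by 1.39 (SE 0.25), whereas IFI35 rose by 1.26 ± 0.26 and IFI44L by 1.14 ± 0.25. Neither rise passed with J82 alone, and that of IFI44L lost its call without palbociclib replicate 3 (0.97).

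Of the 50 genes with the largest differences 23 were in none of the lists. NAMPT, the rate-limiting enzyme of NAD salvage, went from 7.65, 7.97 and 8.22 to 9.64, 10.05 and 10.38 (2.08 ± 0.22). Its copy NAMPTL rose by 2.29 ± 0.34, and reads of the 2 rows cannot be told apart with certainty. KLHDC7B, a kelch repeat protein, stood at 4.84, 6.32 and 6.41 in the controls, with replicate 1 below the median of all genes, and at 8.61, 8.52 and 8.58 under the drug (2.71 ± 0.29). SLFN5, a Schlafen family regulator (2.47 ± 0.28), CA8, a carbonic anhydrase-related protein (2.31 ± 0.26), ANKRD10 (2.06 ± 0.26) and the histone gene H2AC25 (2.05 ± 0.38) also rose. Downward, MGARP, a mitochondrial protein, read 12.19, 11.82 and 12.12 against 9.41, 8.85 and 9.01 (-2.95 ± 0.18; adjusted p = 7.37e-07). SLC12A3, the thiazide-sensitive salt cotransporter, went from 12.59, 12.88 and 13.58 to 10.67, 10.06 and 10.75 (-2.52 ± 0.24), and TLE4, a Groucho corepressor, from 12.35, 11.87 and 12.09 to 10.00, 9.68 and 10.01 (-2.21 ± 0.16). DIO2, a deiodinase that activates thyroid hormone (-2.17 ± 0.24), the seminal protein gene SEMG1 (-2.17 ± 0.18), the natriuretic peptide gene NPPB (-2.15 ± 0.19), the lipid flippase ATP8B1 (-2.02 ± 0.17) and TMC3 (-2.0 ± 0.19) fell as well. In none of these genes did the groups overlap, which the naming rule required.

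Of 1040 microRNA genes 5 rose and 41 fell (0.48% and 3.94%, against 5.4% and 2.78% of all genes), and of 239 small nucleolar RNA genes 3 rose and 20 fell. Outside the MIR548 family 5 of 998 microRNA genes rose and 24 fell, and these 2.4% lie near the share of all genes that fell. The 24 became 12 when control replicate 3 was left out and 15 when palbociclib replicate 2 was, and the 5 became 2 without control replicate 1, 10 without control replicate 2, 12 without palbociclib replicate 1 and 13 without RT112 palbociclib replicate 1. The MIR548 family, derived from a repeat with many near-identical copies, held 17 of the falls among 42 rows. Of 79 rows whose symbol begins with RNU6, the stem of U6 spliceosomal RNA, 39 fell and none rose. The RNU6 rows were taken by symbol alone, whatever their class, so they are not a count of working U6 genes. The members of each of these families share sequence, so their rows are not separate observations. The MIR548 count was 11 without control replicate 3, and the 20 small nucleolar RNAs became 13 when control replicate 1 was left out, 9 for control replicate 3 and 12 for palbociclib replicate 2; their 3 rises became 0 to 6 over single arrays. The deposited table does not say whether a row reads the mature or the precursor RNA.

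Mature sequences of 4 microRNA genes are shown, chosen after their values were seen, because they are called genes outside the MIR548 family or, for MIR622, the largest fall of all. Capitals mark the seed, bases 2 to 8, and sequences are from RefSeq (GRCh38.p14); of 46 called microRNA genes 35 had a mature sequence, and among those 5, all of the MIR548 family, shared a seed.
hsa-miR-21-5p (chr17:59841273-59841294, plus strand): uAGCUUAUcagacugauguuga
hsa-miR-503-5p (chrX:134546371-134546393, minus strand): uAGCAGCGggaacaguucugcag
hsa-miR-222-3p (chrX:45747036-45747056, minus strand): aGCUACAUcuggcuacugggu
hsa-miR-622 (chr13:90231242-90231262, plus strand): aCAGUCUGcugagguuggagc
MIR21 rose from 7.41, 7.31 and 7.62 to 8.93, 8.78 and 9.5 (1.62 ± 0.34; adjusted p = 0.00952), a call lost without palbociclib replicate 3 (1.41). MIR503 fell from 8.67, 8.15 and 7.91 to 6.33, 6.42 and 6.42 (-1.85 ± 0.22). MIR222 read 7.06, 7.23 and 7.5 against 6.07, 5.59 and 5.80 (-1.44 ± 0.34), a call lost without control replicate 3 (-1.32), palbociclib replicate 2 (-1.33) or palbociclib replicate 3 (-1.43). In none of the 3 did the groups overlap. The row named MIR622 went from 14.23, 13.27 and 13.28 to 10.53, 10.22 and 10.19 (-3.28 ± 0.24). By RefSeq its locus (chr13:90231182-90231277) lies inside KRT18P27 (chr13:90230331-90231737), a pseudogene of KRT18, and KRT18 itself fell, so the row is uncertain as a measure of the microRNA. Whether it reads KRT18 transcripts was not tested.

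On the axis that palbociclib targets, 4 of 20 genes rose and 1 fell in J82. CCND1, which encodes cyclin D1, read 11.66, 11.08 and 10.88 in the controls and 9.72, 9.14 and 9.25 under the drug (-1.84 ± 0.21; adjusted p = 0.000141). CDK4 went up from 14.31, 13.88 and 13.77 to 15.18, 14.54 and 15.04 (0.93 ± 0.23), but its call was lost without each of 4 J82 arrays, at 0.80 to 0.88. The inhibitor genes CDKN2B (1.01 ± 0.19) and CDKN1B (0.70 ± 0.15) rose, and E2F2 rose by 0.47 ± 0.11 with a call that was likewise lost without each of 4 arrays. RB1 stood at 10.33, 10.28 and 10.42 against 10.54, 10.51 and 10.84, without overlap but short of the threshold (0.29 ± 0.15; adjusted p = 0.311). CDK6 (-0.23), CCND2 (-0.03), CCND3 (-0.13), CDKN2A (-0.04), CDKN2D (0.13), CDKN1C (0.09), RBL1 (0.16), RBL2 (0.48), CDK2 (-0.13), CCNE1 (-0.14), CCNE2 (-0.23), E2F1 (0.01) and E2F3 (-0.03) did not pass the test, nor did CDKN1A. Without control replicate 2, control replicate 3 or palbociclib replicate 3 only 2 of the 4 rises of this list passed.

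In the list of mitotic and G2/M genes 31 of 72 fell and none rose (median -0.57). PLK1, a mitotic kinase, read 12.17, 11.29 and 11.17 against 9.61, 9.28 and 9.74 (-2.0 ± 0.23), and the kinesin KIF20A went from 11.01, 10.57 and 10.76 to 8.74, 8.53 and 8.52 (-2.18 ± 0.18). Both were without overlap, which the naming rule required, with control replicate 1 the highest. The cytokinesis scaffold ANLN (-2.01 ± 0.17), the spindle protein ASPM (-1.80 ± 0.32) and the proliferation marker MKI67 (-1.40 ± 0.27) fell too. In the list of G1/S and replication genes 6 of 52 rose and none fell (median 0.16), with DTL at 11.67, 11.71 and 11.60 against 12.42, 12.43 and 12.75 (0.87 ± 0.15). The 6 became 2 when control replicate 3 was left out, and 3 when palbociclib replicate 3 was.

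The PLK1 promoter is shown for the cell cycle homology region (CHR), a site known to confer late cell cycle expression. Capitals mark the core TTTGAA, searched on both strands, 29 bases before the start (RefSeq, GRCh38.p14).
PLK1 promoter (chr16:23678639-23678938, plus strand): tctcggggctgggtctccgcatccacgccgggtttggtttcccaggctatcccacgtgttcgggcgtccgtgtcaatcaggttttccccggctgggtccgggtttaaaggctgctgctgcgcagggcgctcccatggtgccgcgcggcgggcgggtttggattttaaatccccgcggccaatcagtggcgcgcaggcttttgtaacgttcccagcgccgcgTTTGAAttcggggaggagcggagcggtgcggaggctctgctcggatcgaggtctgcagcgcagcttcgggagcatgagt
This short core was in 12.5% of all 15247 promoters, 8.5% of those of rising genes and 17.5% of those of falling genes, and in 67.7% of 62 promoters of the G2/M list, fallen or not. The E2F core TTTGGCGC was in 0.8% of all promoters, 0.8% of rising and 1.0% of falling genes, and the AP-1 core TGANTCA in 6.1%, 4.4% and 3.8%.

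To ask which of these changes differed from those of another line, the J82 response was set against that of RT112, in which 4.95% of genes rose and 3.53% fell, in the same fit. The lines share no arrays. Since the labels do not give the dose in each line, effects of line and of dose cannot be told apart. RT112 palbociclib replicate 1, which enters this comparison and every SE, stood apart: its gene median was 5.61 against 5.33 and 5.31 in its partners, and it correlated with them at 0.983, whereas they correlated with each other at 0.995. Its weight in the fit with array weights was 0.113. Leaving out single arrays gave from 688 differing genes (without RT112 control replicate 1) to 1517 (without RT112 palbociclib replicate 1). The response was higher in J82 for 615 genes (2.74%) and lower for 412 (1.83%), 4.57% together. Of the 1213 genes that rose in J82, 282 also rose in RT112, which is 23.2% of the J82 and 25.4% of the RT112 rises, and of the 624 that fell, 111 also fell in RT112 (17.8% and 14%). The response was higher than that of RT112 for 221 of the rising genes (18.2%), and it was lower for 227 of the falling genes (36.4%). Of the 50 leading genes, which were chosen by their size in J82, 38 differed between the lines.

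The 8 highest differences of response were DTL (6.42 ± 0.22), H2BC3, H2BC14, TYMS, PRIM1, H2BC9, CDC6 and H2BC10, genes of replication and histones. For these RT112 differences lay between -6.35 and -4.25, whereas in J82 they lay between -0.96 and 0.87 and only DTL passed the test. H2BC14 and H2BC3 were below the median of all genes in every J82 array, H2BC14 at 3.55 to 3.68 and H2BC3 at 4.62 to 5.24. Of 52 G1/S genes 45 differed, all higher in J82, and of 72 G2/M genes 48 did. Downward, the sterol enzymes HMGCS1 (-5.45), MSMO1 (-4.81) and SQLE (-4.67) led. MSMO1 read 13.03, 14.72 and 14.74 in J82 controls and 13.38, 13.13 and 13.53 under palbociclib, overlapping through control replicate 1 (-0.82 ± 0.36; adjusted p = 0.228), against 4.0 in RT112. Of 26 cholesterol genes 16 differed, all lower in J82.

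Of 173 lysosome and autophagy genes 15 were higher in J82 and 3 lower, beside 2.74% and 1.83% of all genes. In RT112 39 of the 173 rose and 5 fell (median 0.27, against 0.38 in J82). Of 46 autophagy genes none was higher in J82 and 1 was lower, with medians of 0.30 in J82 and 0.36 in RT112. ASAH1 (difference of response 2.17, RT112 0.30), MCOLN3 (2.60, RT112 0.16) and CLCN7 (1.47, RT112 0.66) were among the higher. RRAGC, at 2.14 in J82 and 1.14 in RT112, was not shown to differ (adjusted p = 0.154). TXNIP differed by only 0.07 between the lines, with a rise of 2.43 in RT112. In the integrated stress list 4 of 29 genes were higher in J82 and 3 lower. In RT112 7 of them rose and none fell (median 0.39, against 0.53 in J82). ATF4 rose by 1.24 in J82 and 1.22 in RT112 and was not shown to differ. Of the 28 NF-kB genes, 5 of which rose in RT112, 2 were higher in J82, and TNFAIP6 was one of them, at 3.51 against 0.30. Among receptors and secreted proteins IGFBP5 (-0.40 in RT112), LRP2 (0.03), EPHA2 (0.37), GFRA1 (-0.11), GRPR (-0.02) and BDKRB2 (-0.25) each differed between the lines.

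**Figure D5:**
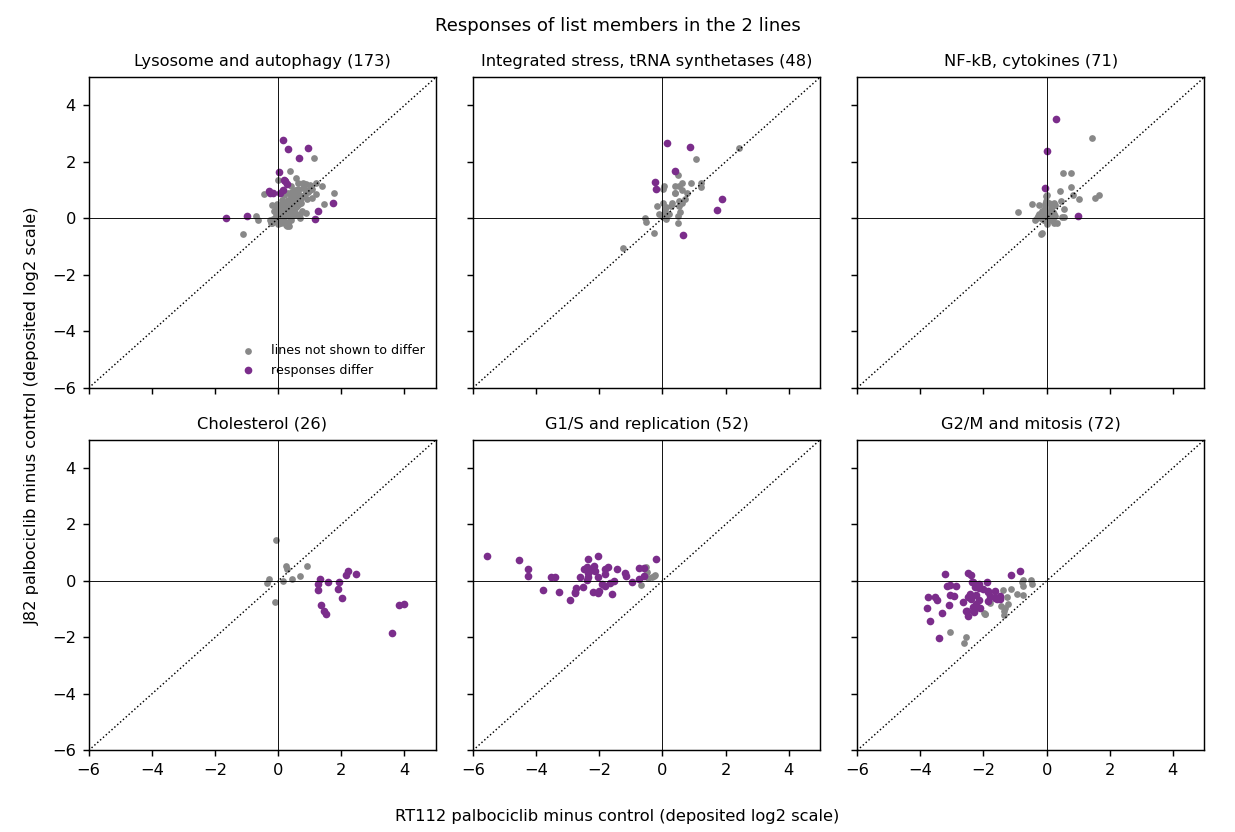
Difference between palbociclib and control in J82 (y axis) against that in RT112 (x axis), both on the deposited log2 scale, for the members of 6 groups of lists, with genes whose responses differed in purple and equality as a dotted line. G1/S genes lie near 0 in J82 and reach -5.54 in RT112, and cholesterol genes reach 4.0 in RT112 and 1.45 in J82.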

How the data were processed

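RNA of 18 cultures of 3 bladder cancer lines was hybridised to Affymetrix whole-transcript arrays. The authors deposited a table of log2 intensities, made with RMA in Affymetrix Expression Console per the submitters' processing notes; the sources used here do not give the genome build. Of 67528 transcript cluster rows 23781 had exactly 1 symbol, giving 22465 genes; a gene with several rows took the row with the highest mean over J82 and RT112. Groups were fitted together over the 12 arrays of J82 and RT112 in limma 3.58.1 (R 4.3.3; eBayes with an intensity trend, 8 residual degrees of freedom), so each SE pools the spread of both lines. P-values were two-sided and adjusted over all 22465 genes by Benjamini-Hochberg, with a threshold of 0.05. On simulated data for the J82 comparison, with 200 of 22465 genes changed, the fit recovered 85% of changes of size 1 and 99% of size 2, with 14 false calls. The noise was simulated separately for each gene, without shifts of whole arrays, so these figures need not hold for the real arrays.

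The members and gene lists were chosen with earlier results of these data known, so their counts are descriptions. Genes named are the 25 highest and 25 lowest called differences without overlap of the groups (small RNAs and uncharacterised loci counted only), up to 5 called members of each list by size, the 8 highest and 8 lowest differences of response, and all of the CDK4/6 and RB axis; other names are marked in the text as chosen by role or after their values were seen. Alternatives changed the arrays fitted, scaling, filter, rows per gene, variance model, array weights, replicate block and promoter window. Motifs were searched in RefSeq promoters (GRCh38.p14).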

Additional observations from a re-analysis of the deposited data

Results flagged for a closer look

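The response of J82 and that of RT112 differed in 1027 genes by a test of the difference itself (limma interaction contrast, adjusted over 22465 genes). Each value below is the J82 difference minus the RT112 difference on the deposited log2 scale, in which line and dose cannot be told apart. Replication and histone genes had the highest values: DTL (6.42), H2BC3 (6.32), H2BC14 (6.10), TYMS (5.25), PRIM1 (4.68), H2BC9 (4.56), CDC6 (4.44) and H2BC10 (4.13). These genes fell in RT112, by -6.35 to -4.25, and only DTL passed the test in J82. H2BC3 and H2BC14 were below the median of all genes in every J82 array. The sterol enzymes had the lowest, with HMGCS1 (-5.45), MSMO1 (-4.81) and SQLE (-4.67). Among leading genes that rose in J82 the difference passed for the secreted, receptor and enzyme genes TNFAIP6 (3.20), HSD17B14 (3.03), BDKRB2 (2.80), GDF15 (2.54) and IL6 (2.37). It also passed for the stress and lysosomal genes MCOLN3 (2.60), ASAH1 (2.17), DDIT3 (1.64), RRAGD (1.55) and CLCN7 (1.47). These are leading genes only: in the integrated stress list 4 of 29 genes were higher in J82 and 3 lower. KLHDC7B (2.69), H2AC25 (2.47), CA8 (2.17), RND3 (1.96) and ANKRD10 (1.63) passed too. The leading rises TNFAIP3, SAT1, PSAT1, TXNIP, SLFN5, RRAGC, AARS1, NAMPT and NAMPTL were tested and did not pass. Among genes that fell in J82 the values were IGFBP5 (-2.82), EPHA2 (-2.82), LRP2 (-2.71), GRPR (-2.34), GFRA1 (-2.23), THBS1 (-1.84), ADAMTS1 (-1.56) and KRT18 (-1.30) for secreted, surface and keratin genes, and MGARP (-3.04), SLC12A3 (-2.42), TLE4 (-2.35), SEMG1 (-2.34), DIO2 (-2.19), NPPB (-2.18), TMC3 (-2.03), ATP8B1 (-1.78) and MIR622 (-1.83) for genes of other roles. ANLN (1.41) fell in both lines and less in J82. The genes were chosen by their size in J82 or by the size of this difference, and values are given only where this test passed. Of the leading falls KIF20A, PLK1 and SNORD14E did not pass it.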

How the results depend on the processing

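Of 5293 pairs of a called named gene and an alternative, 4960 kept direction and threshold, 333 kept direction only and 0 reversed. Calls held throughout for 171 of 241 genes. Most of these genes were named because they were called and large, and several alternatives leave the difference itself unchanged. Reversals were thus unlikely, and the tally does not describe all 1837 calls. The J82 count of 1837 became 535 with a log2 difference of at least 1 as well, 1045 with J82 alone and 1160 with all transcript cluster rows tested, where fewer arrays or more rows entered. Leaving out single arrays gave 1147 (without J82 control replicate 3) to 2416 (without RT112 palbociclib replicate 1). The count of 1027 differing genes became 1625 after quantile normalization, 602 with all rows tested and 2384 with array weights, and 688 to 1517 without single arrays. Shifting the arrays to one median moved the split from 1213 higher and 624 lower to 830 and 695, and quantile normalization to 1226 and 1075, with a median difference of -0.008 and -0.001 in place of 0.04. With the replicate number as a block 1900 genes passed for J82 and 1095 for the difference. Deviations of same-numbered J82 arrays correlated at 0.172, 0.188 and 0.075, and those of differently numbered ones at -0.146 to -0.006. The main fit left the arrays unpaired, and whether the numbers mark pairs was not tested. Nor was the cause of the shifts in these counts tested. Low signal limits the dim genes, of which few were called.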
